A study of Mus musculus with 60 samples.

Results

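Interferon-stimulated genes (ISGs) are the genes that cells switch on when interferon binds its receptor. Here 35 of them, listed by symbol, were found among 54532 genes of the expression table, and their levels were followed in 6 tissues of obese mice given sulforaphane (SFN) or vehicle. Membership went by gene symbol. This list and the other gene lists below were chosen with earlier results of these data known. Counts set beside all genes are therefore descriptions and not independent tests. All 60 libraries came from male wild type C57BL/6 mice (C57BL/6J in the methods of the study) with diet-induced obesity, which started a high fat diet at 12 weeks of age and stayed on it for 16 to 20 weeks. At about 28 weeks of age, 5 mice received daily intraperitoneal injections of SFN at 5 mg/kg for 1 week (mice 6 to 10) and 5 received vehicle (mice 1 to 5). SFN is a plant isothiocyanate known for activating the transcription factor NRF2. The liver, skeletal muscle, hypothalamus and brown fat (BAT) of each mouse, with its epididymal (eWAT) and inguinal (iWAT) white fat, were measured by poly(A) RNA sequencing, so groups had n = 5 in every tissue. No lean mice entered, so every comparison was made within obesity.

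Viral or self nucleic acid is detected by sensors such as RIG-I, which leads to secretion of type I interferon. The receptor then signals through JAK kinases to STAT2, which works with IRF9 in ISGF3, a factor that binds the interferon-stimulated response element in ISG promoters. The products block virus entry, translation and release, and some of them feed back on sensing. In fat and liver, ISGs are expressed by parenchymal cells and by resident macrophages alike.

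The 35 genes were grouped into 9 roles. They are the transcription factors Irf7, Irf9 and Stat2, the RNA sensors Ddx58 (RIG-I), Ifih1 (MDA5) and Dhx58 (LGP2), and the oligoadenylate synthetase genes Oas1a, Oas2, Oas3, Oasl1 and Oasl2. Next come the viral RNA binders Ifit1, Ifit2 and Ifit3, the dynamin-like GTPase genes Mx1 and Mx2, and the guanylate-binding protein genes Gbp2 and Gbp3. The ubiquitin-like modifier Isg15 was grouped with its protease Usp18, its ligase Herc6, the RIG-I ligase gene Trim25, and Dtx3l, Parp9 and Parp14. Other antiviral effectors were Rsad2 (viperin), Cmpk2, Bst2 (tetherin), Eif2ak2 (PKR), Zbp1, Samd9l and Xaf1, and the last group held Ifi35, Ifi44 and Rtp4. Many laboratory strains carry disrupting Mx mutations, and the annotation lists Mx2 as a polymorphic pseudogene. Exons of 13 of the 35 overlapped exons of another gene, on the same strand for 4 and on the opposite strand for 9, among them Dtx3l and Parp9, which overlap each other. Levels of such genes are less certain, since the use of strand in counting is not given in the sources used here.

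Promoters of the group were searched for the core of the response element, written GAAANNGAAA on either strand, where N is any base and matches may overlap. Of the 35 genes, 26 matched a RefSeq window (GRCm38.p6, 250 bases before to 50 after the start), and the motif was present for 13 of these 26 genes (50%). The same motif was in 3.99% of all 27025 genes with a window. The following stretches of 60 bases upstream of the start were taken only from genes with a match there. Among these, Ifit1, Ifit3, Isg15 and Oas3 in eWAT and Stat2 in liver carry results below, and Rsad2 is a further antiviral gene. Capitals mark the motif in either orientation.
Ifit1 (chr19:34640775-34640834, plus strand): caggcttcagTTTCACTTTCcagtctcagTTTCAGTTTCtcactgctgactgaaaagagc
Ifit3 (chr19:34583363-34583422, plus strand): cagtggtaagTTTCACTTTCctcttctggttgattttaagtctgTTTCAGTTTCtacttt
Isg15 (chr4:156200847-156200906, minus strand): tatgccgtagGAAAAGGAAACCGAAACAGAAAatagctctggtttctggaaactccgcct
Oas3 (chr5:120777685-120777744, minus strand): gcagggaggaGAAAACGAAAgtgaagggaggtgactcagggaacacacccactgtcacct
Rsad2 (chr12:26456523-26456582, minus strand): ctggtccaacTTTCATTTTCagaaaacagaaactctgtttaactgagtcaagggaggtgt
Stat2 (chr10:128270266-128270325, plus strand): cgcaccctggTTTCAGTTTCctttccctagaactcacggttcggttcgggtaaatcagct
Isg15 had 3 overlapping matches, Ifit1 and Ifit3 had 2 each, and Oas3, Rsad2 and Stat2 had 1. A match is a description of these letters and not a measured binding site. Irf7, Oasl2, Ifit2, Cmpk2 and Ifi44, which also carry results below, had a window without a match, and Ddx58 matched only after the start. The absence of a match says only that these letters were not in the window.

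Values are FPKM, the read count scaled by gene length and a factor per library. Depth, as recovered read counts, was 14802638 to 25258292 reads per library (median 16949841). Liver, muscle, hypothalamus and BAT held their defining markers: hepatocyte marker sums were 40340 to 63690 FPKM in liver and at most 17.3 FPKM elsewhere, and muscle, neuron and brown adipocyte markers likewise peaked in skeletal muscle, hypothalamus and BAT. Adipocyte marker sums were 4980 to 8476 FPKM in iWAT, 2973 to 3904 FPKM in BAT and 789.5 to 4273 FPKM in eWAT, so eWAT was not set apart from BAT by them, and macrophage marker sums in eWAT reached 2912 to 9589 FPKM. In iWAT, 4 libraries carried B cell and lymph node markers, with sums of 370, 236 and 368 FPKM in SFN mice 6, 7 and 8 and 469 FPKM in vehicle mouse 2, against 2.33 to 13.8 FPKM in the other 6. The SFN comparison in iWAT is given with and without those 4. Skeletal muscle marker sums varied between libraries of BAT (1.58 to 2612 FPKM in SFN mice and 1.79 to 3033 FPKM in vehicle mice) and reached 1329 FPKM in iWAT of vehicle mouse 4, and their part in the ISG values was not tested. Nothing in the labels ties the mice to cages or batches, so p-values measure only the spread between these mice.

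ISG levels were first compared between tissues in the vehicle mice. The group stood highest in liver, intermediate in the fat depots, and lowest in skeletal muscle and hypothalamus. The mean of log2(FPKM + 0.1) over the 35 genes was 2.57 ± 0.11 in liver, 2.12 ± 0.13 in iWAT, 2.08 ± 0.11 in eWAT, 1.27 ± 0.16 in brown fat, 0.19 ± 0.13 in muscle and -0.29 ± 0.13 in the hypothalamus (SD, n = 5 each). Ranges of neighbouring tissues in that order were separate except for iWAT (1.94 to 2.26) and eWAT (1.95 to 2.23). Liver held the highest mean level of 20 genes, eWAT and iWAT of 7 each, and the hypothalamus of 1. The lowest level was in the hypothalamus for 23 genes and in skeletal muscle for 12.

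**Figure D1:**
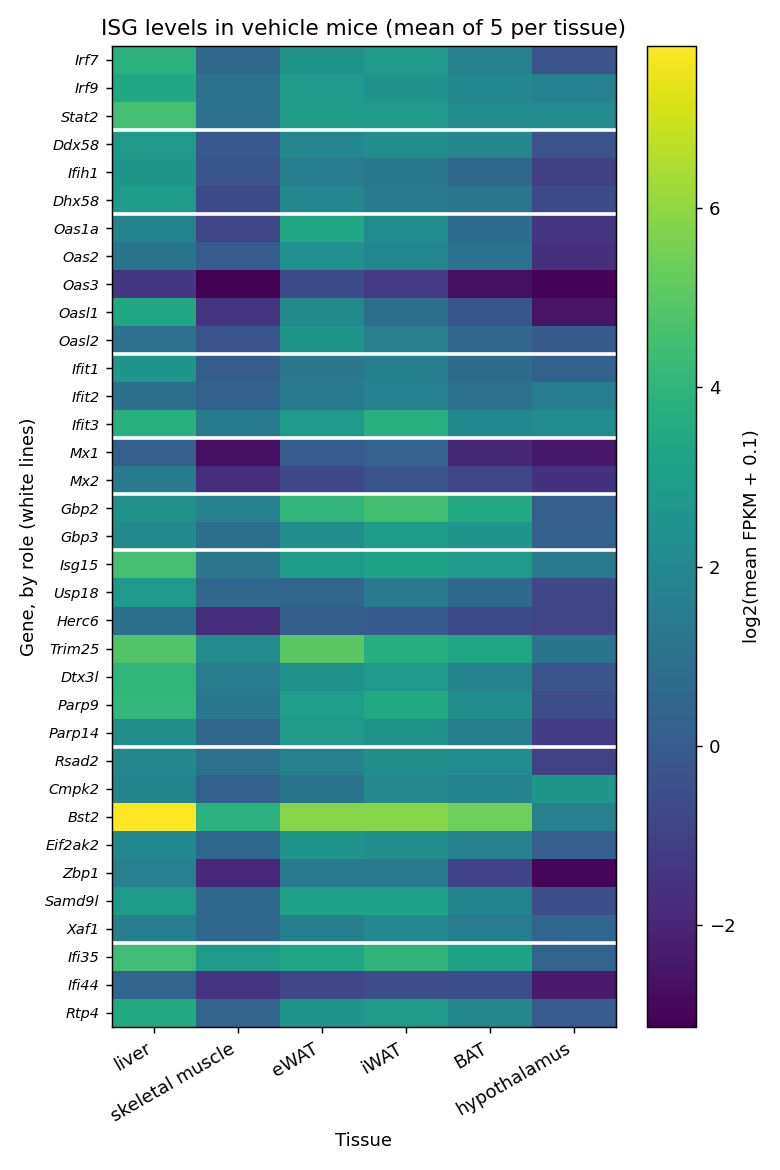
Mean level of each of the 35 ISGs (rows, grouped by role) in the 6 tissues of vehicle mice (columns), as log2(mean FPKM + 0.1) of 5 mice. Bst2 in liver is the brightest cell at 225 FPKM, and Cmpk2 is the gene whose brightest cell is in the hypothalamus.

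Bst2, which tethers budding virus to the cell surface, had the highest level of the 35 in every tissue but the hypothalamus of vehicle mice, with 225 ± 18.5 FPKM in liver and 3.12 ± 0.58 FPKM in the hypothalamus, where Cmpk2, Ifit3 and Stat2 were above it. Trim25, Gbp2 and Ifi35 followed by the mean pooled over all 60 libraries, at 15.7, 13.7 and 10.9 FPKM, an order that differed between tissues, since in liver Isg15 (24.1 FPKM) and Stat2 (23.0 FPKM) were above both Gbp2 and Ifi35. The scarcest were Oas3, Ifi44, Mx1 and Mx2, at means of 0.326, 0.539, 0.775 and 0.825 FPKM. The profile was not the same for every gene. Oas1a was highest in eWAT (10.8 ± 1.6 FPKM, against 3.37 ± 0.70 FPKM in liver), and Gbp2 was highest in iWAT (22.2 ± 1.1 FPKM, against 5.09 ± 1.32 FPKM in liver). Cmpk2, a mitochondrial nucleotide kinase gene that neighbours Rsad2 in the genome, reached 6.14 ± 0.56 FPKM in the hypothalamus, against 1.10 to 3.91 FPKM as means of the other tissues.

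Each tissue was tested against the mean of the other 5 in vehicle mice (limma on log2(FPKM + 0.1), Benjamini-Hochberg adjusted over 16276 genes, passing at an adjusted p under 0.05), and 34 ISGs entered, all but Oas3. In liver 30 passed as higher, where 36.6% of all genes did, and 2 passed as lower (Ifit2 and Gbp2), where 7524 of 16276 genes did. In iWAT all 34 tested were higher, against 31% of genes. Without vehicle mouse 2, whose iWAT was high in lymph node markers, 32 were higher, a count not set against all genes. In eWAT 26 were higher, against 34.3% of genes, and Usp18 and Cmpk2 were lower, against 7310 of 16276 genes. In skeletal muscle all 34 tested were lower, against 49.8% of genes. The hypothalamus had 32 lower, against 44% of genes. Ifit2 and Cmpk2 were higher there (log2 differences 0.57 and 1.26, SE 0.13 and 0.10, limma adjusted p = 0.000208 and 2.88e-12), where 6724 of 16276 genes were. BAT was mixed, with 10 higher and 11 lower, against 29.1% and 43.9% of genes. Among the higher genes in BAT were Gbp2, Gbp3 and Rsad2, and among the lower were Irf9, Stat2 and Zbp1.

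SFN was then set against vehicle within each tissue by the same limma test over all genes kept at a mean of at least 0.5 FPKM. In eWAT every one of the 35 ISGs had a higher mean in SFN mice. The median log2 fold change of the 35 was 0.63, against 0.003 over all 13908 genes tested, of which 50.7% were positive. One gene, Ifit1, passed the adjusted threshold, where 0.209% of all genes did. At an unadjusted p under 0.05, 31 of the 35 were higher, where 7.64% of all genes were, and at an adjusted p under 0.1 there were 10, where 1.19% of all genes passed. For 19 ISGs all 5 SFN values lay above all 5 vehicle values, where 3.16% of all genes did so. Mx2 and Ifi44, at vehicle means of 0.490 and 0.478 FPKM, reached the filter only through the SFN mice. Their place in these counts of higher genes therefore leans on that group. In whole tissue a change in the share of a cell type and a change of RNA per cell cannot be told apart.

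Ifit1, which binds viral RNA and blocks its translation, had 5.09, 5.15, 3.40, 6.64 and 3.85 FPKM in SFN mice 6 to 10 in eWAT, against 1.82, 2.01, 2.10, 2.77 and 2.17 FPKM in vehicle mice 1 to 5. The groups did not overlap. Its log2 fold change was 1.09 (SE 0.18, limma adjusted p = 0.0453, exact permutation p = 0.00794, the smallest that 5 against 5 mice can give). That call was narrow, since for Ifit1 in eWAT the adjusted p of the tools ran between 9.61e-06 with DESeq2 and 0.164 with a macrophage covariate, and it was kept when SFN mouse 8 or 9 was left out but not when any of the other 8 mice was. The fold change itself stayed between 0.97 and 1.20 without each mouse in turn.

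Isg15, the ubiquitin-like protein that is attached to other proteins or secreted, had 14.3, 15.9, 13.3, 28.9 and 17.3 FPKM in SFN mice 6 to 10, against 4.60, 7.66, 8.20, 7.77 and 8.12 FPKM in vehicle mice 1 to 5. Every SFN value was above every vehicle value, and SFN mouse 9 stood far above the rest. The log2 fold change was 1.26 (SE 0.23, limma adjusted p = 0.068). Ifit3, a partner of Ifit1, had 13.9, 11.9, 11.4, 18.2 and 9.06 FPKM in SFN mice, against 5.56, 5.89, 5.66, 7.54 and 8.23 FPKM in vehicle mice (log2 fold change 0.94, SE 0.18, limma adjusted p = 0.082). Ddx58, which encodes the RNA sensor RIG-I, differed less but with little spread. It had 4.93, 5.60, 4.77, 5.64 and 5.06 FPKM in SFN mice, against 3.28, 3.65, 3.91, 4.16 and 4.21 FPKM in vehicle mice, again without overlap (log2 fold change 0.43, SE 0.08, limma adjusted p = 0.082).

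**Figure D2:**
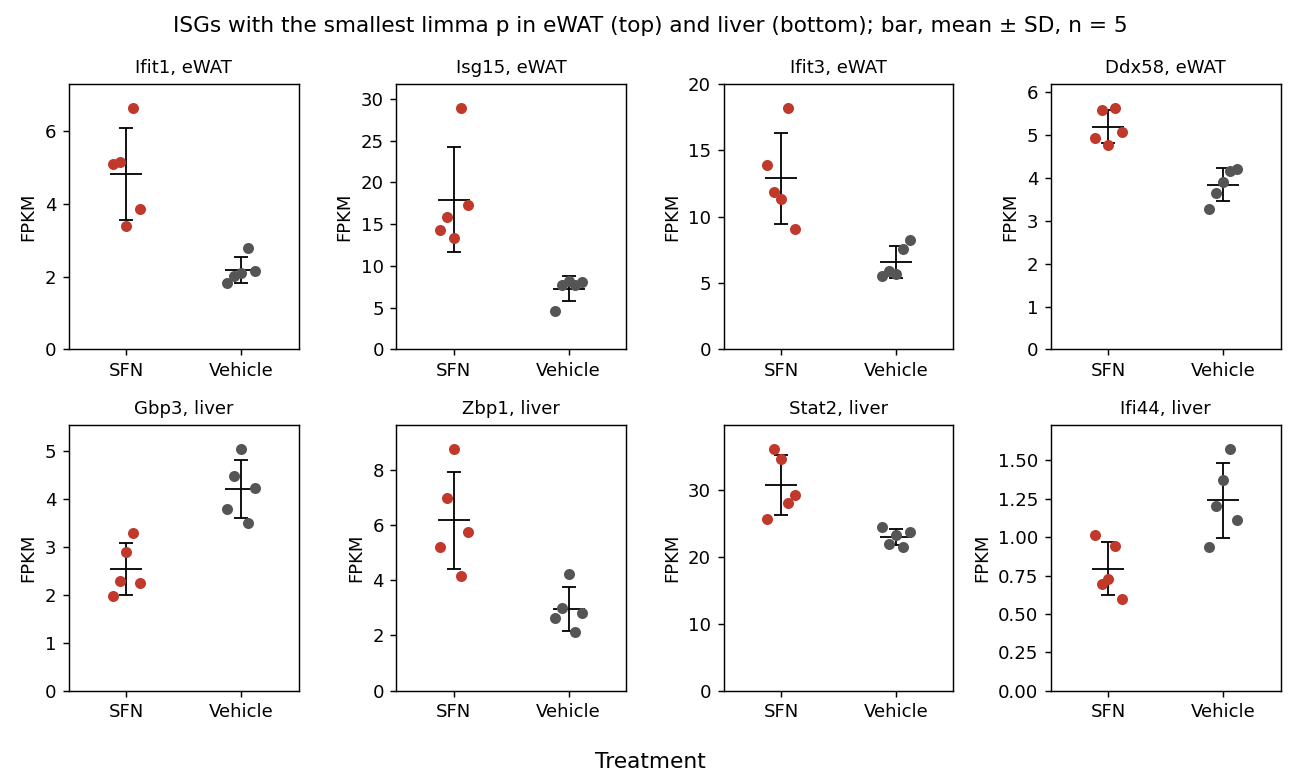
FPKM per mouse (y axis from 0) in SFN and vehicle mice for the 4 ISGs with the smallest limma p in eWAT (upper row) and in liver (lower row), with mean ± SD of 5 mice. In eWAT all SFN points sit above all vehicle points for Ifit1, Isg15, Ifit3 and Ddx58, and in liver Gbp3 lies lower and Stat2 higher in SFN mice without overlap.

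Each of the 9 roles held genes higher at an unadjusted p under 0.05 in eWAT, with all tested genes past it in 6 roles, 5 of 7 in the ubiquitin and Isg15 group, 6 of 7 other effectors and 2 of 3 in the last group. Among the transcription factor genes, Irf7, which amplifies interferon induction, averaged 12.7 ± 6.3 FPKM in SFN mice and 5.46 ± 0.88 FPKM in vehicle mice (SD, n = 5 each, log2 fold change 1.10, limma adjusted p = 0.114). Irf9 and Stat2, the partners in ISGF3, had log2 fold changes of 0.38 and 0.45. The 3 sensor genes ran from 0.21 for Ifih1 to 0.54 for Dhx58. All 5 oligoadenylate synthetase genes were higher at an unadjusted p under 0.05, from 0.62 for Oas1a to 1.32 for Oas3, the scarcest of them at 1.54 ± 0.69 FPKM in SFN mice and 0.53 ± 0.13 FPKM in vehicle mice. The 3 Ifit genes had a median log2 fold change of 0.94, and Mx1 and Mx2 had 1.00 and 0.59.

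The effectors showed both the largest and the smallest differences. Zbp1, a sensor of Z-form nucleic acid that can start cell death, had the largest at 1.69 (SE 0.34, limma adjusted p = 0.082), with 6.34, 5.40, 7.17, 21.8 and 6.73 FPKM in SFN mice 6 to 10, against 2.05, 2.13, 2.20, 2.88 and 3.33 FPKM in vehicle mice 1 to 5. SFN mouse 9 lay far above the other SFN mice for Zbp1, yet the other 4 also exceeded all vehicle mice. Bst2 averaged 104 ± 57.6 FPKM in SFN mice and 56.7 ± 2.5 FPKM in vehicle mice, and all SFN values were above the vehicle values. The smallest difference was that of Samd9l at 0.14 (SE 0.08), which overlapped between the groups. Samd9l, Trim25, Parp9 and Ifi35 were the 4 that did not reach an unadjusted p under 0.05. Gbp2, which attacks the vacuoles of intracellular microbes, reached 180 FPKM in SFN mouse 9, where the other SFN mice had 19.7 to 46.5 FPKM and the vehicle mice 11.5 to 26.2 FPKM. Genes other than Ifit1, Isg15, Ifit3 and Ddx58 were named in this and the preceding paragraph to show the range of each role, after their values were seen.

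**Figure D3:**
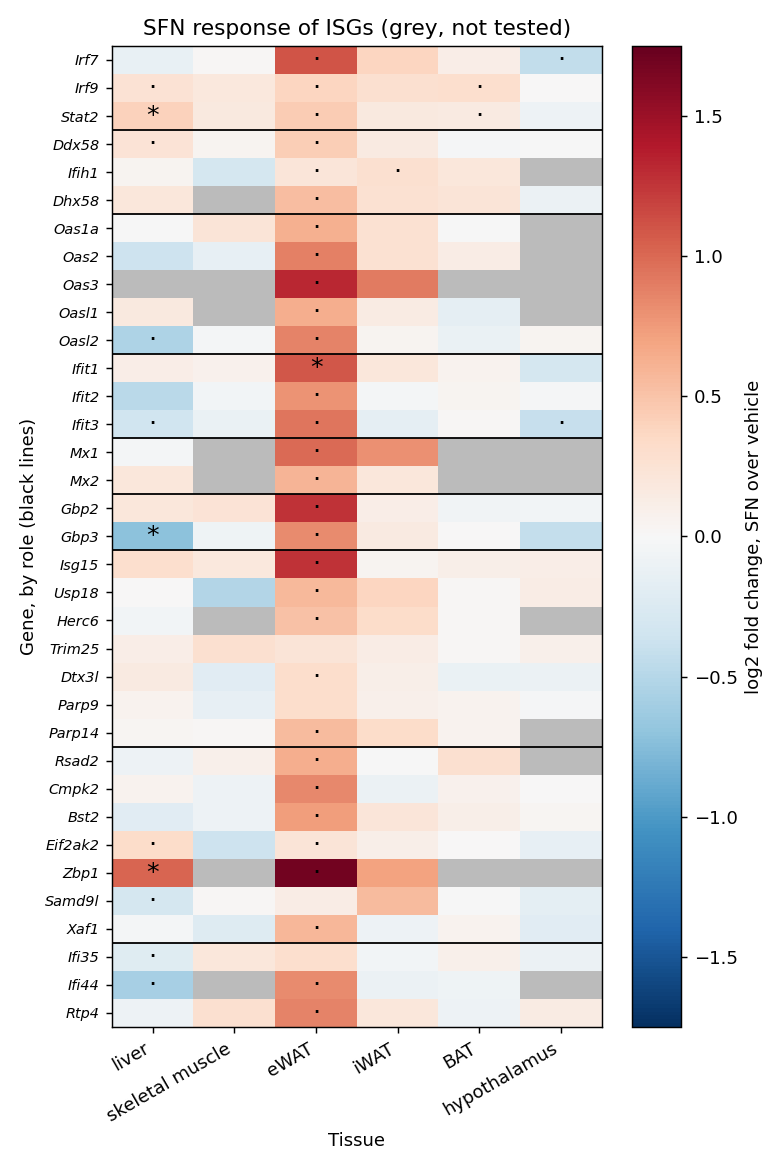
Log2 fold change of SFN over vehicle for the 35 ISGs (rows, grouped by role) in 6 tissues, where stars mark an adjusted limma p under 0.05, dots an unadjusted p under 0.05, and grey cells genes under the filter. The eWAT column is positive for all 35 genes with a median of 0.63, while liver holds 18 positive and 16 negative cells.

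The number of ISGs past the adjusted threshold in eWAT depended on the tool. With edgeR on recovered read counts it was 1 (Ifit1), where 0.235% of genes passed, with DESeq2 it was 22, where 4.43% of genes passed, and with limma in one fit over all 60 libraries it was 18, where 3.21% of genes passed. Of these, 16 were called by both DESeq2 and the joint fit, and all were higher in SFN mice. The joint fit pools the spread of a gene over tissues. In SFN mice the SD of the mean over the 35 ISGs ran from 0.05 in liver to 0.34 in eWAT. In vehicle mice it was 0.11 in both. That fit can therefore understate the spread in eWAT. Without SFN mouse 9, the highest mouse for 29 of the 35 genes, 29 ISGs were higher at an unadjusted p under 0.05, all 29 among the 31 of the full comparison, 3 passed the adjusted threshold (Ifit1, Isg15 and Zbp1), and the median log2 fold change was 0.51. Without the other mice in turn the adjusted count was 1 (SFN mouse 8) or 0 (each of the other 8). Over the whole table, 0 to 39 genes passed in eWAT with each mouse left out. The unadjusted count of 29 was not set against all genes in its fit.

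Means per mouse showed the same separation. In eWAT the mean of log2(FPKM + 0.1) over the 35 ISGs was 2.79, 2.65, 2.50, 3.36 and 2.59 in SFN mice 6 to 10, against 1.95, 2.00, 2.07, 2.23 and 2.13 in vehicle mice 1 to 5. All SFN mice were above all vehicle mice, with means of 2.78 ± 0.34 and 2.08 ± 0.11 (SD, n = 5 each). Between 23 (mouse 8) and 34 (mouse 9) of the 35 genes exceeded every vehicle value in each SFN mouse. These counts, and that of genes highest in mouse 9, were not set against all genes and only describe the 35.

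**Figure D4:**
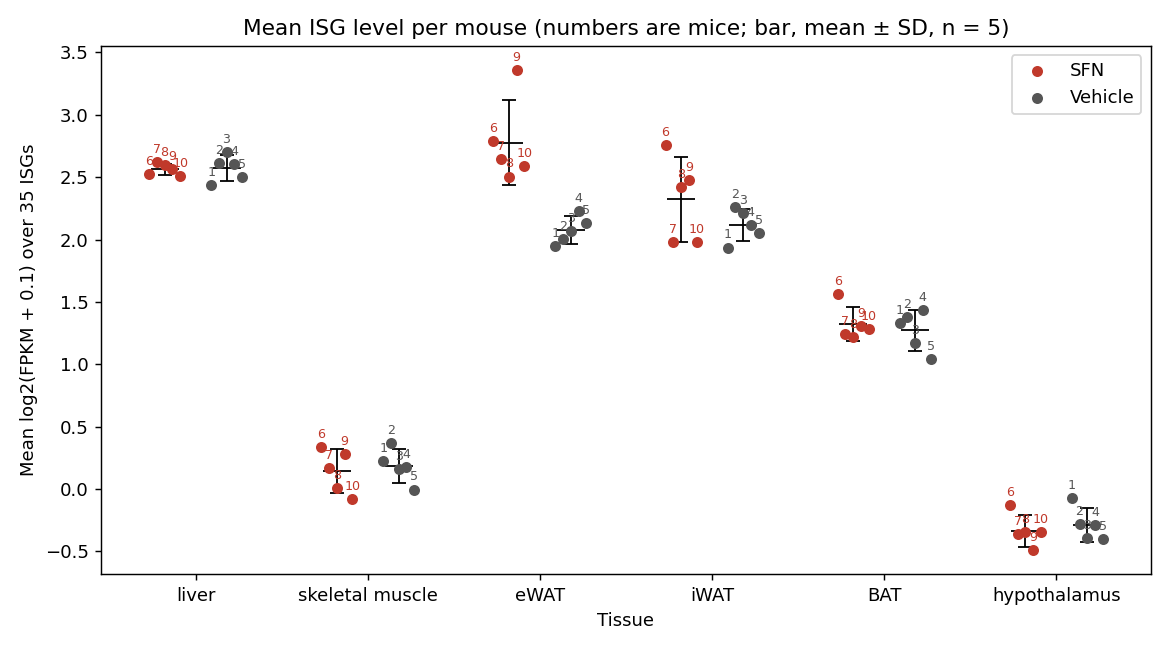
Mean log2(FPKM + 0.1) over the 35 ISGs for each mouse (numbered points) in 6 tissues, SFN left and vehicle right, with mean ± SD of 5 mice. In eWAT the SFN mice (2.50 to 3.36) sit above the vehicle mice (1.95 to 2.23), and the groups overlap in the other 5 tissues.

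Macrophage markers were higher in SFN mice in eWAT, as the ISGs were, with a median log2 fold change of 0.72. Lists of other cell types were mixed. Their medians were 0.78 for T cell (8 tested), 0.73 for NK cell (3 tested) and 1.83 for neutrophil markers (3 tested). They were 0.38 for microglia (4 tested), 0.07 for B cell (5 tested), 0.04 for dendritic cell (4 tested) and -0.05 for endothelial markers (6 tested). Of 14 listed macrophage markers 13 were tested, 13 had a higher mean in SFN mice, 8 at an unadjusted p under 0.05, and Mrc1 and Fcgr1 passed the adjusted threshold. Their summed level was 5910 to 9589 FPKM in SFN mice and 2912 to 6085 FPKM in vehicle mice, and only Clec4f, a Kupffer cell marker, was listed at 0 in all 10 libraries. Fcgr1, an Fc receptor gene that interferon also induces, averaged 41.0 ± 15.4 FPKM in SFN mice and 13.0 ± 2.4 FPKM in vehicle mice (log2 fold change 1.58, limma adjusted p = 0.0371). Summed neutrophil and NK cell markers were highest in SFN mouse 9, at 53.2 and 21.7 FPKM, against 7.98 to 9.77 and 3.57 to 9.13 FPKM in the other SFN mice and 5.88 to 25.1 and 3.73 to 6.26 FPKM in vehicle mice. The mean macrophage marker level was also used as a covariate, a setting chosen after seeing the data. With it 9 of 35 ISGs were higher at an unadjusted p under 0.05, where 8.89% of all genes were. The adjusted threshold was passed by 0, and the median log2 fold change was 0.58, against 0.63 without the covariate. That marker level was itself higher in SFN mice and includes Fcgr1, so this fit cannot separate it from the treatment. All 5 adipocyte markers had lower means in SFN mice, none past an unadjusted p of 0.05 by limma, with a median log2 fold change of -0.43 and sums of 789.5 to 2359 FPKM in SFN mice and 1256 to 4273 FPKM in vehicle mice, and the lowest sum was that of SFN mouse 9. Of 8 T cell markers tested 6 were positive, with sums of 16.6 to 35.7 FPKM in SFN mice and 15.6 to 31.7 FPKM in vehicle mice, and dendritic cell sums were 41.6 to 93.1 FPKM in SFN mice and 50.5 to 152 FPKM in vehicle mice. The part of these cells in the ISG difference was not tested further.

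Other genes of the pathway were read beside the 35, against the 7.64% of all genes that were higher at an unadjusted p under 0.05 in eWAT and the 0.209% past the adjusted threshold, so that 0 past it in a list of this size is near the background. Of 21 interferon ligand genes none reached the filter in any tissue, and in eWAT their summed level was at most 0.56 FPKM in SFN mice and 0.14 FPKM in vehicle mice. Among receptor and JAK-STAT genes in eWAT, 15 were tested, 0 passed the adjusted limma threshold, 2 were higher at an unadjusted p under 0.05 (Ifnar2 and Ptpn6), and the median log2 fold change was 0.16. Of 19 nucleic acid sensing genes, 0 passed, 10 were higher at an unadjusted p under 0.05, and the median was 0.33, with Tlr9 and Trim21 the smallest p-values. Among 60 further ISGs, 0 passed, 38 were higher and 0 lower at an unadjusted p under 0.05, and the median was 0.37. Ifitm1, which restricts virus entry, led these at 6.17 ± 2.59 FPKM in SFN mice and 2.17 ± 0.40 FPKM in vehicle mice (limma adjusted p = 0.0687), followed by Oas1b (adjusted p = 0.0861). Of 35 genes that lean on interferon gamma, a list that shares Irf1 and Tap1 with the further ISGs, all had a positive fold change, 16 at an unadjusted p under 0.05, with a median of 0.66.

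In liver the ISGs split. Of 34 tested, 2 passed as higher and 1 as lower in SFN mice, where 13.1% of all 13388 genes passed, so by limma the share of ISGs called lay below the share of all genes. At an unadjusted p under 0.05, 5 were higher and 6 lower, where 14.5% and 15.7% of all genes were. The median log2 fold change was 0.02, against -0.02 over all genes, and 18 were positive, where 47.3% of all genes were.

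Zbp1 rose in liver. It had 5.20, 6.98, 8.76, 4.17 and 5.76 FPKM in SFN mice 6 to 10, against 2.65, 3.01, 4.24, 2.11 and 2.82 FPKM in vehicle mice 1 to 5 (log2 fold change 1.02, SE 0.21, limma adjusted p = 0.0148). The groups touched only where SFN mouse 9 fell just below vehicle mouse 3. Stat2, the ISGF3 subunit, had 25.6, 36.2, 34.6, 28.1 and 29.2 FPKM in SFN mice, against 24.5, 22.0, 23.3, 21.5 and 23.7 FPKM in vehicle mice, without overlap. Its log2 fold change was 0.41 (SE 0.09, limma adjusted p = 0.0219), and it missed the threshold when vehicle mouse 4 was left out (adjusted p = 0.0505) or FPKM totals were equalised (adjusted p = 0.0622).

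Gbp3, a guanylate-binding protein gene, fell in liver. It had 1.98, 2.29, 2.90, 3.31 and 2.25 FPKM in SFN mice 6 to 10, against 3.80, 4.50, 5.05, 3.50 and 4.23 FPKM in vehicle mice 1 to 5, without overlap (log2 fold change -0.72, SE 0.15, limma adjusted p = 0.0138). Ifi44 had 1.01, 0.69, 0.73, 0.94 and 0.60 FPKM in SFN mice, against 0.94, 1.20, 1.37, 1.57 and 1.11 FPKM in vehicle mice, with overlap (log2 fold change -0.59, SE 0.18, limma adjusted p = 0.0572). At an unadjusted p under 0.05 the higher genes in liver were Irf9, Stat2, Ddx58, Eif2ak2 and Zbp1, and the lower ones were Oasl2, Ifit3, Gbp3, Samd9l, Ifi35 and Ifi44. Calls in liver numbered 6 with edgeR, where 15.4% of all genes passed, and 7 with DESeq2, where 19.6% passed, so that with these tools the share of the 34 ISGs called was close to that of all genes. Without vehicle mouse 1 or SFN mouse 6 there were 5. Over the whole table, genes called in liver ran from 919 to 2063 with each mouse left out. The count of 5 was not set against the share of all genes in its own fit. The macrophage marker sum in liver was 210 to 320 FPKM in SFN mice and 185 to 320 FPKM in vehicle mice. Acute-phase genes, which the liver makes in inflammation, moved strongly in the same livers, with 14 of 16 higher past the adjusted threshold and sums of 48240 to 90510 FPKM in SFN mice and 12460 to 18150 FPKM in vehicle mice, and their part in the ISG values was not tested.

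Further ISGs in liver were 57 tested, with 7 higher and 1 lower past the adjusted threshold, a share near the 13.1% of all genes. Ifitm2 averaged 363 ± 123 FPKM in SFN mice and 137 ± 14.1 FPKM in vehicle mice (log2 fold change 1.33, limma adjusted p = 0.007). Ly6e had 164 ± 11.1 FPKM in SFN mice and 101 ± 10.2 FPKM in vehicle mice (adjusted p = 0.00128), and Ifitm3, Helz2, Rnf213, Ube2l6 and Pml also rose, while Ifi204 fell. The receptor and sensing lists had 0 calls by limma in liver, with 4 and 2 of 14 genes each at an unadjusted p under 0.05 in either direction, no more than the 14.5% of all genes higher and 15.7% lower would give.

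In iWAT none of the 35 ISGs passed by limma, edgeR or DESeq2, where 0.00707% of all genes passed limma. One, Ifih1, was under an unadjusted p of 0.05, where 8.3% of all genes were. Of the 35, 28 had a positive fold change, where 46.2% of all genes did, and the median was 0.16, against -0.02 over all genes. Oas3, with a vehicle mean of 0.304 FPKM, reached the filter in iWAT only through the SFN mice, where mouse 6 had 1.995 FPKM. Its positive fold change leans on that group. Ifih1 had 2.81, 2.29, 2.72, 3.43 and 2.70 FPKM in SFN mice 6 to 10, against 2.10, 2.00, 2.75, 2.40 and 2.17 FPKM in vehicle mice 1 to 5, with overlap (log2 fold change 0.27, SE 0.12, limma adjusted p = 0.59). Bst2 had 62.1, 71.4, 59.9, 81.5 and 58.9 FPKM in SFN mice, against 57.1, 54.7, 61.3, 54.7 and 56.8 FPKM in vehicle mice (log2 fold change 0.22). Bst2 overlapped through vehicle mouse 3 alone, and Ifih1 through vehicle mice 3 and 4.

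Samd9l and the lymph node markers moved together in iWAT. Samd9l had 17.1, 12.1, 15.4, 10.2 and 8.22 FPKM in SFN mice, against 6.83, 15.3, 6.92, 6.94 and 7.50 FPKM in vehicle mice, and vehicle mouse 2, the only vehicle library high in lymph node markers, was the high value there. Irf7 had 13.1, 7.43, 8.25, 8.59 and 6.40 FPKM in SFN mice, against 5.29, 7.59, 7.84, 6.34 and 5.95 FPKM in vehicle mice. Without the 4 libraries high in those markers, which leaves 2 SFN and 4 vehicle mice, the log2 fold changes were 0.36 for Ifih1, 0.27 for Bst2, 0.37 for Samd9l and 0.24 for Irf7, and 0 passed the adjusted limma threshold. Of 34 ISGs tested in those 6 libraries 27 were positive, with a median of 0.17, and 5 were higher at an unadjusted p under 0.05, where 14.2% of all genes were past it in either direction. The mean over the 35 ISGs was 2.76, 1.98, 2.42, 2.48 and 1.98 in SFN mice 6 to 10, against 1.94, 2.26, 2.21, 2.11 and 2.05 in vehicle mice 1 to 5. Mice 6, 8 and 9 lay above all vehicle mice and mice 7 and 10 within their range.

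In BAT 31 ISGs were tested and 0 passed by limma, edgeR or DESeq2, where 0.0075% of all genes passed limma. Irf9 and Stat2 were higher at an unadjusted p under 0.05, where 15.4% of all genes were past it in either direction. Of the 31, 22 were positive, where 50.5% of all genes were, and the median log2 fold change was 0.05, against 0.002 over all genes. Irf9 had 5.22, 4.28, 4.62, 4.82 and 4.50 FPKM in SFN mice 6 to 10, against 3.60, 4.18, 3.51, 4.28 and 3.42 FPKM in vehicle mice 1 to 5. The groups did not overlap, though SFN mouse 7 and vehicle mouse 4 were almost equal, and the log2 fold change was 0.30 (SE 0.08, limma adjusted p = 0.146). Stat2 had 5.49, 4.90, 5.03, 5.04 and 4.71 FPKM in SFN mice, against 4.58, 4.61, 4.68, 4.76 and 3.90 FPKM in vehicle mice (log2 fold change 0.16, limma adjusted p = 0.308). Ifih1 had 1.73, 1.61, 1.44, 1.39 and 1.50 FPKM in SFN mice, against 1.50, 1.41, 1.20, 1.44 and 1.11 FPKM in vehicle mice (log2 fold change 0.19), and the groups overlapped. Dhx58 had 2.68, 2.03, 2.26, 2.52 and 2.99 FPKM in SFN mice, against 2.65, 1.99, 1.65, 2.39 and 1.97 FPKM in vehicle mice (log2 fold change 0.23), again with overlap. SFN mouse 6 was the highest of the 10 for 17 of the 35 genes in BAT and for 20 in iWAT. Its iWAT library was high in lymph node markers, and these counts were not set against all genes.

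Skeletal muscle had 27 ISGs tested, 0 called by limma, edgeR or DESeq2, and 0 under an unadjusted p of 0.05, where 13.6% of all genes were, and 0% of all genes passed the adjusted threshold. The smallest p was that of Eif2ak2, which encodes the kinase PKR, with 1.51, 1.28, 0.79, 0.80 and 0.88 FPKM in SFN mice 6 to 10, against 1.39, 1.34, 1.50, 1.09 and 1.40 FPKM in vehicle mice 1 to 5 (log2 fold change -0.36, SE 0.19, limma adjusted p = 0.423). Trim25 had 5.04, 6.83, 5.04, 4.26 and 5.11 FPKM in SFN mice, against 4.32, 6.02, 3.78, 4.18 and 3.42 FPKM in vehicle mice (log2 fold change 0.28). The groups overlapped for both genes. Ifih1 had 0.69, 0.56, 0.46, 0.75 and 0.45 FPKM in SFN mice, against 0.73, 0.71, 0.82, 0.73 and 0.67 FPKM in vehicle mice (log2 fold change -0.31). Irf9 had 2.20, 2.27, 1.67, 2.29 and 2.44 FPKM in SFN mice, against 1.77, 1.89, 1.80, 1.89 and 2.08 FPKM in vehicle mice (log2 fold change 0.18), and these overlapped too.

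In the hypothalamus 23 ISGs were tested and 0 passed by any of the 3 tools, where 0% of all genes passed limma. Ifit3 and Irf7 were lower at an unadjusted p under 0.05, where 6.51% of all genes were past it in either direction. Ifit3 had 3.99, 2.60, 2.66, 3.44 and 4.22 FPKM in SFN mice 6 to 10, against 5.31, 4.81, 3.55, 4.81 and 3.91 FPKM in vehicle mice 1 to 5 (log2 fold change -0.41, SE 0.15, limma adjusted p = 0.75). Irf7 had 0.64, 0.58, 0.54, 0.44 and 0.37 FPKM in SFN mice, against 0.82, 0.83, 0.60, 0.76 and 0.60 FPKM in vehicle mice (log2 fold change -0.43, SE 0.18). Both genes overlapped between the groups. Gbp3 had 1.15, 0.77, 0.42, 0.80 and 0.77 FPKM in SFN mice, against 1.30, 0.89, 1.00, 1.21 and 0.86 FPKM in vehicle mice (log2 fold change -0.42). Stat2 had 4.04, 4.35, 4.37, 4.10 and 3.79 FPKM in SFN mice, against 4.66, 4.13, 4.41, 4.35 and 4.36 FPKM in vehicle mice (log2 fold change -0.08), and these overlapped as well.

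The response to SFN was compared between tissues as a difference of log2 fold changes over 15 tissue pairs. Of 489 tests of an ISG in a pair, 15 passed, where 1.84% of all tests did. Liver minus eWAT held 11 of the 15, with 4.22% of all genes called in that pair and a median difference of -0.63 over the 35 ISGs, against -0.02 over all genes. At an unadjusted p under 0.05 there were 22 of 35 in liver minus eWAT, where 20.4% of all genes were. The contrast with eWAT was not shown to be particular to liver. In skeletal muscle minus eWAT the median difference was -0.81, with 22 of 33 ISGs under an unadjusted p of 0.05 (12.6% of all genes) and 0 past the adjusted threshold (0.0914% of all genes). In eWAT minus BAT the median was 0.63, with 22 of 35 (12.8% of all genes) and 0 adjusted (0.0354%). In eWAT minus hypothalamus it was 0.71, with 28 of 33 (11.7% of all genes). Only 27 ISGs reached the filter within skeletal muscle, 31 within BAT and 23 within the hypothalamus. The others in these pairs entered only through eWAT, where they were higher, so these counts lean on that tissue. The ISGs called in liver minus eWAT were Irf7, Oas2, Oas3, Oasl2, Ifit1, Ifit2, Ifit3, Gbp3, Cmpk2, Ifi44 and Rtp4, each lower in response in liver than in eWAT. Oas3 was under the filter in liver, at 0.26 ± 0.06 FPKM in SFN mice and 0.29 ± 0.07 FPKM in vehicle mice, and entered this pair only through eWAT.

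Ifit3 differed most clearly, by -1.28 (SE 0.23, limma adjusted p = 0.0068), from log2 fold changes of -0.34 in liver and 0.94 in eWAT. Oasl2 differed by -1.41 (SE 0.29, adjusted p = 0.0129), Ifit1 by -0.97 (adjusted p = 0.0134) and Ifi44 by -1.42 (adjusted p = 0.0144). Gbp3 had the largest difference at -1.55 (SE 0.40, adjusted p = 0.0378). Irf9, Stat2 and Eif2ak2 were not shown to differ, with differences of -0.13 (SE 0.12), -0.04 (SE 0.17) and 0.09 (SE 0.14). With the mouse as a replicate block, 7 of the 11 passed, and Oas3, Ifit2, Cmpk2 and Rtp4 had adjusted p-values of 0.0767, 0.0622, 0.0878 and 0.0615. Over all genes the calls in liver minus eWAT fell from 621 to 341 with the block.

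**Figure D5:**
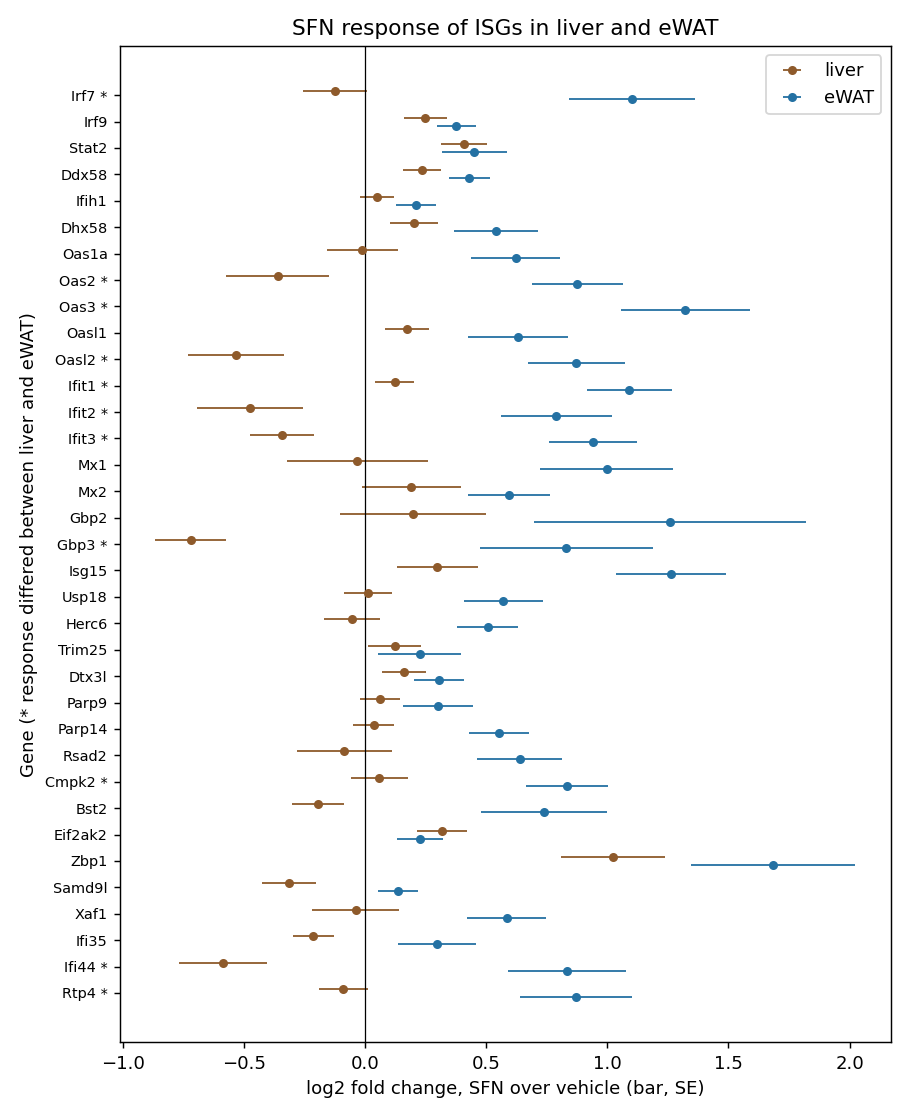
Log2 fold change of SFN over vehicle with its SE for each ISG in liver and in eWAT (Oas3 was under the filter in liver), where stars mark genes whose response differed between these tissues at an adjusted p under 0.05. The 11 starred genes have liver values between -0.72 and 0.12 where tested in liver, and eWAT values between 0.79 and 1.32.

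The other 4 calls were Zbp1 in liver minus skeletal muscle (1.24, limma adjusted p = 0.0422), Stat2 in liver minus hypothalamus (0.49, adjusted p = 0.011), and Irf7 and Ifit3 in eWAT minus hypothalamus (1.53 and 1.35, adjusted p = 0.0475 and 0.0357). Zbp1 was under the filter in muscle, at 0.13 ± 0.09 FPKM in SFN mice and 0.16 ± 0.05 FPKM in vehicle mice, and entered that pair only through liver. Of all genes 5.92% passed in liver minus skeletal muscle and 7.86% in liver minus hypothalamus, above the 1 of 34 ISGs in each, and 0.286% in eWAT minus hypothalamus, where 2 of 33 ISGs did. With the replicate block the pairs of eWAT and hypothalamus had adjusted p-values of 0.185 and 0.152, and calls appeared for Gbp3 in liver minus iWAT (-0.87, adjusted p = 0.039) and Ifit1 in eWAT minus BAT (1.03, adjusted p = 0.0349). The response was not shown to differ between eWAT and iWAT, where 0 of 35 passed by limma, where 0% of all genes passed, 12 were under an unadjusted p of 0.05, where 4.86% of all genes were, and the smallest adjusted p was 0.823, with a median difference of 0.42. Without the 4 libraries high in lymph node markers, a setting chosen after seeing the data, 0 passed by limma, 13 were under an unadjusted p of 0.05, where 6.61% of all genes were, the smallest adjusted p was 0.653 and the median difference was 0.54. Leaving out each mouse from both tissues gave 5 to 12 calls in place of 15, with 5 without mouse 7, 6 without mouse 2, 3 or 4, 7 without mouse 10 and 9 without mouse 1 or 6.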

How the data were processed

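Poly(A) RNA libraries of 6 tissues from 10 mice were analysed, 60 in all. The deposited values are FPKM, in which the authors divided reads by gene length and by a library factor. Deposited tables of single comparisons give raw counts for some genes, used to recover and check reads, and the authors' own fold changes and p-values, which were not used. Builds mm10 and GRCm38 come from the submitters' processing notes. Aligner, counter and annotation: not given in the sources used here.

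Symbols came from GENCODE M21 (54409 of 54532 IDs matched). Read counts were recovered from FPKM, with whole reads within 0.01 of a read for 98.6% of genes above 0, and 0 of 146080 known counts differed. Sequences came from RefSeq.

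In each tissue SFN was tested against vehicle by limma 3.58.1 (R 4.3.3, intensity trend) on log2(FPKM + 0.1), keeping genes whose mean reached 0.5 FPKM, with two-sided p-values adjusted by Benjamini and Hochberg across the genes kept. A fold change on this scale understates the change of low genes. Exact permutation tests were two-sided. Recovered counts were also tested with edgeR 4.0.16 and DESeq2 1.42.0, the scripts were tested on simulated data, and alternative pseudocounts, filters, scalings and leaving out each mouse were tried. SFN and vehicle groups hold different mice. Across tissues the labels' mouse number marks the same animal, so the mouse was also used as a block. The members and lists were chosen with earlier results of these data known. By rule, values are printed for genes that passed, otherwise for the 4 smallest p-values of a tissue, and for the 4 highest and lowest levels. Further genes (Irf7, Oas3, Zbp1, Bst2, Gbp2 and Samd9l in eWAT, and the levels of Oas1a and Cmpk2) were chosen after their values were seen.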

Additional observations from a re-analysis of the deposited data

Results flagged for a closer look

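In 5 of 60 groups of 5 mice examined, 1 mouse lay far from the others, where chance gives about 5% of groups. Isg15 in eWAT was 28.9 FPKM in SFN mouse 9 (the other SFN mice 13.3 to 17.3 FPKM) and 4.60 FPKM in vehicle mouse 1 (the other vehicle mice 7.66 to 8.20 FPKM). Samd9l in iWAT was 15.3 FPKM in vehicle mouse 2 (others 6.83 to 7.50 FPKM), which is the vehicle library high in lymph node markers. In BAT the mean over the 35 genes was 1.56 in SFN mouse 6 (others 1.22 to 1.31), and Stat2 was 3.90 FPKM in vehicle mouse 5 (others 4.58 to 4.76 FPKM).

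Without a block for the mouse, the response to SFN differed between tissues by a test of the difference itself for 15 combinations of gene and tissue pair. In liver minus eWAT the log2 differences were -1.23 for Irf7, -1.24 for Oas2, -1.40 for Oas3, -1.41 for Oasl2, -0.97 for Ifit1, -1.26 for Ifit2, -1.28 for Ifit3, -1.55 for Gbp3, -0.78 for Cmpk2, -1.42 for Ifi44 and -0.96 for Rtp4. In liver minus skeletal muscle Zbp1 differed by 1.24, and in liver minus hypothalamus Stat2 differed by 0.49. In eWAT minus hypothalamus Irf7 differed by 1.53 and Ifit3 by 1.35. Oas3 in liver and Zbp1 in skeletal muscle were under the filter, and both entered only through the other tissue. With the mouse as a block, 6 of the 15 missed the threshold: Oas3, Ifit2, Cmpk2 and Rtp4 in liver minus eWAT, and Irf7 and Ifit3 in eWAT minus hypothalamus.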

How the results depend on the processing

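The count of ISGs past the adjusted threshold was 3 in liver and became 6 with edgeR, 7 with DESeq2 and 5 with one fit over 60 libraries and the mouse as replicate block, and 2 to 5 without each mouse. In eWAT 1 became 0 with pseudocount 1, no filter, median-of-ratios scaling, equal FPKM totals, limma without trend, robust variances or the macrophage covariate, 22 with DESeq2, 18 in one fit over 60 libraries and 19 with the replicate block added, and 0 to 3 without each mouse. The 31 ISGs higher in eWAT at an unadjusted p under 0.05 became 28 to 33 without each mouse. That count became 9 with the macrophage covariate, a setting added after seeing the data that cannot separate the marker level from the treatment. The 15 differences between tissues became 5 without a filter, 11 with the replicate block (6 lost and 2 gained) and 5 to 12 without each mouse. With that block the calls over all genes in these pairs fell from 4091 to 2307. The ISG counts without each mouse, without a filter and with the block in single tissues are given without the share of all genes. Genes called in eWAT over the whole table were 29 by limma, 603 by DESeq2 and 447 in the joint fit. Counts of the levels by tissue stayed within 1.5 times under every setting tried. The 4 genes of smallest p in each tissue kept their direction under the settings run, and the other named genes were not followed across them. Depth limits the scarcest genes, such as Oas3, which did not reach the filter in 4 of 6 tissues.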
